A study of Arabidopsis thaliana with 12 samples.

Results

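The 10 genes described here encode sugar carriers of the SWEET and SUC families, and they were taken by name from the 22953 genes of an *Arabidopsis thaliana* expression table. They comprise 7 SWEET genes (*SWEET1*, *SWEET2*, *SWEET4*, *SWEET11*, *SWEET12*, *SWEET16* and *SWEET17*) and 3 SUC genes (*SUC1*, *SUC2* and *SUT4*, the last of which is also called *SUC4*). Shoots of Columbia-0 seedlings were sequenced in 4 groups of 3 libraries. All seedlings came from 1/2 MS media. The *tmt2* mutant either received 1% sucrose (the group *tmt2-L-Suc*, labelled 5 days) or received no sugar (*tmt2-S*, labelled 7 days). The WT likewise received 1% sucrose (WT-Suc, 5 days) or none (WT, 5 days). The mutant is a single T-DNA line, disrupted in the last exon of *TMT2*, which encodes a sugar importer of the vacuole membrane, the tonoplast. The *tmt2-S* seedlings were those without true leaves. The study uses *tmt2-L* for mutants with normal true leaves, and does not say how seedlings were picked for *tmt2-L-Suc*. The *tmt2-S* seedlings were also older than the other 3 groups. In any comparison with *tmt2-S*, genotype or sucrose therefore cannot be told apart from age or from seedling class. The study calls its replicates biological, but neither it nor the labels say that those sequenced came from separate cultures, so p-values measure the spread between these libraries.

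SWEET proteins are uniporters that let sugars pass a membrane down their concentration gradient, in either direction. SUC proteins are proton symporters that take up sucrose against its gradient. In leaves, SWEET11 and SWEET12 release sucrose from phloem parenchyma cells into the cell wall space, and SUC2 takes it up into companion cells, which is the step that loads the phloem. SWEET2, SWEET16, SWEET17 and SUT4 sit in the tonoplast and pass sugars between vacuole and cytosol.

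Each library held between 20187961 and 21370053 expected counts (reads assigned to genes). The counts of *TMT2* give no check of the genotype labels, because the transcript upstream of the insertions is still made in the mutant: its FPKM was 17.2 ± 7.08 in *tmt2-L-Suc*, 23.4 ± 1.79 in *tmt2-S*, 9.1 ± 2.06 in WT-Suc and 8.08 ± 1.18 in the WT (SD, n = 3 each). In edgeR, *TMT2* was called higher in *tmt2-S*/WT (log2FC 1.48), *tmt2-L-Suc*/WT-Suc (0.86) and *tmt2-L-Suc*/WT (0.94). The cause of these higher values was not tested. FPKM scales the read number of a gene by its transcript length and by the depth of the library, so that levels of different genes can be set side by side. Mesophyll markers were high in all 12 libraries, with a summed FPKM over 4 genes between 76817 and 83067 in *tmt2-L-Suc*, between 52666 and 74206 in *tmt2-S*, between 74766 and 99052 in WT-Suc, and between 78289 and 82835 in the WT. Of these 4 genes, edgeR called 2 lower in *tmt2-S*/WT (*CA1*, log2FC -1.20, and *LHCB1.3*, -0.51) and 2 higher in *tmt2-L-Suc*/*tmt2-S* (*CA1*, 1.11, and *LHCB2.1*, 0.96). Of all genes tested, 22.6% were called lower in *tmt2-S*/WT. In *tmt2-L-Suc*/*tmt2-S*, 25.8% were called higher and 25.7% lower. Of the 8 root markers, the root hair genes *COBL9*, *LRX1*, *EXPA7* and *EXPA18* were each at or below 0.45 FPKM, with *COBL9*, *LRX1* and *EXPA18* at 0 in all 3 *tmt2-S* libraries. The endodermis genes *CASP1*, *CASP2* and *MYB36* reached 5.4, 2.11 and 1.55 FPKM. *BGLU23* had between 289 and 954 FPKM. Of the 5 root markers tested, edgeR called *BGLU23* (log2FC -1.01) and *LRX1* (-6.31) lower in *tmt2-S*/WT. In *tmt2-L-Suc*/*tmt2-S* it called *BGLU23* higher (1.3) and *MYB36* lower (-1.69). The part of these markers in the values of the carriers was not tested. Replicate 2 of WT-Suc stood apart in seed storage transcripts: the 9 seed markers summed to 639 FPKM there, against 0.1 to 10.3 FPKM in the other 11 libraries. Calls made for the 10 genes by edgeR with WT-Suc are therefore also given without it.

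In the WT without sucrose, *SWEET11* had the highest level of the 10 genes, and the order below it was *SUC2*, *SWEET2*, *SUC1*, *SWEET16*, *SWEET17*, *SWEET1*, *SWEET12*, *SUT4* and *SWEET4*. *SWEET11* averaged 76.0 FPKM and *SUC2* averaged 33.6 FPKM, and their replicates did not overlap. From *SUC1* (14.3 to 18.3 FPKM) down through *SWEET16* (8.63 to 17.9 FPKM), *SWEET17* and *SWEET1* to *SWEET12* (6.46 to 9.81 FPKM), each gene overlapped the next in its range, so neighbours in that stretch did not differ beyond their spread. *SUT4* lay between 0.92 and 1.41 FPKM, below all of them. *SWEET4*, a hexose carrier of the plasma membrane, had 0 to 8 counts in each of the 12 libraries and at most 0.39 FPKM. It did not pass the filter on low counts and was not tested, which leaves 9 genes for the comparisons.

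**Figure D1:**
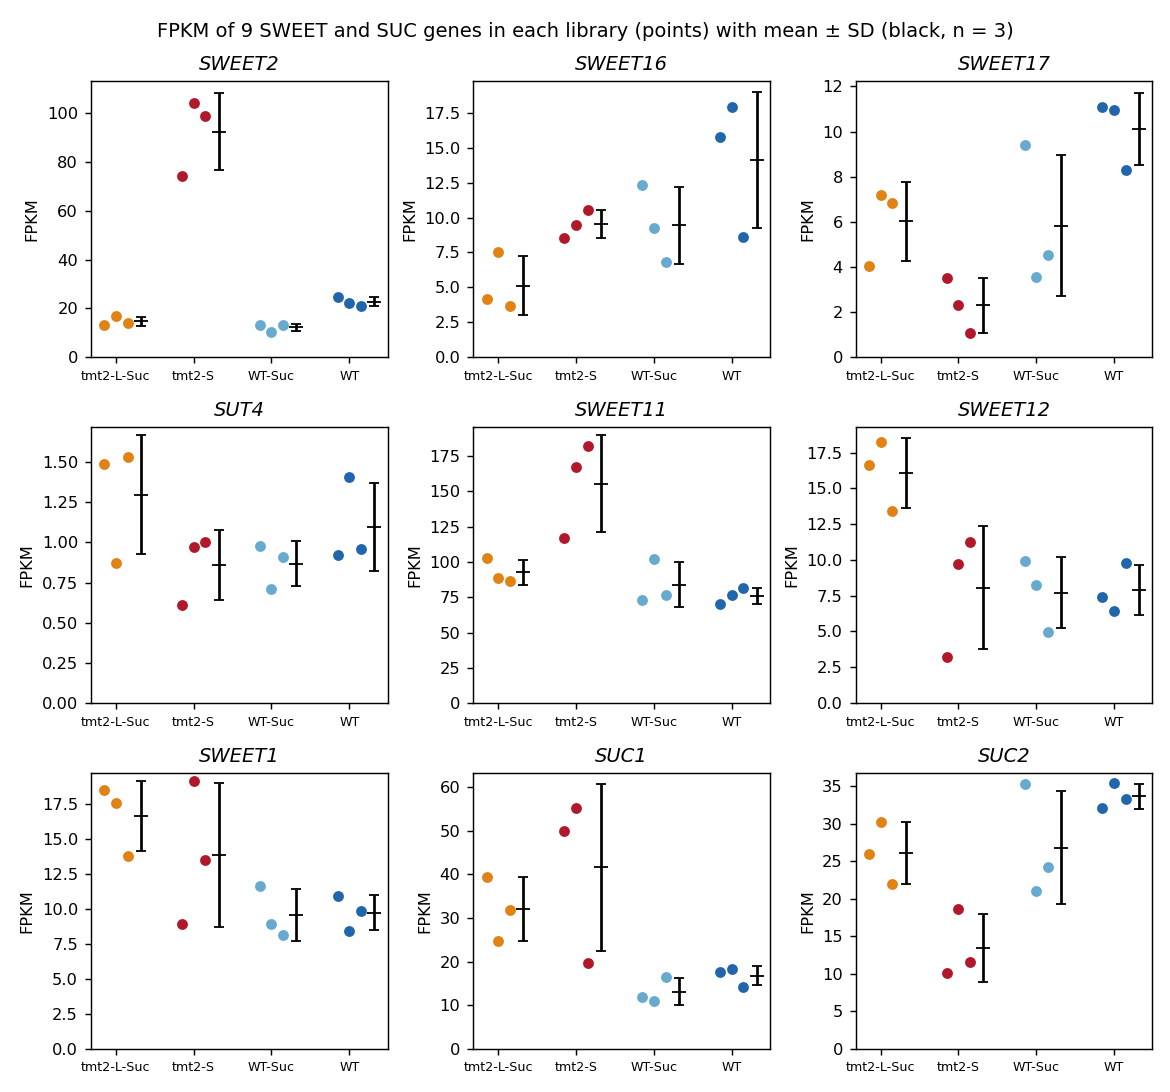
FPKM of the 9 tested genes (vertical axes, each starting at 0) in every library of *tmt2-L-Suc*, *tmt2-S*, WT-Suc and the WT (points), with the mean and SD of the 3 replicates in black. The 3 *tmt2-S* libraries lie above the other 9 for *SWEET2* (74.4 to 104 FPKM) and *SWEET11* (117 to 182 FPKM), and below the other 9 for *SWEET17* (1.08 to 3.49 FPKM) and *SUC2* (10.2 to 18.6 FPKM).

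The next gene after *SUC1* on its chromosome is *SUC5*, of the same family. In TAIR10.1, *SWEET2* (AT3G14770) lies on chromosome 3 from 4957334 to 4959704, *SWEET11* (AT3G48740) on chromosome 3 from 18052466 to 18054832, *SWEET12* (AT5G23660) on chromosome 5 from 7971647 to 7973995 and *SWEET17* (AT4G15920) on chromosome 4 from 9030486 to 9033648. *SUC1* (AT1G71880) lies on chromosome 1 from 27054030 to 27056464 and *SUC2* (AT1G22710) on chromosome 1 from 8030587 to 8033156. The coding sequences of *SWEET11* and *SWEET12* were identical at 82.6% of 852 aligned bases, those of *SUC1* and *SUC5* at 84.3% of 1533, and those of *SUC1* and *SUC2* at 76.8% of 1524. The expected count of each of the 10 genes was a whole number in every library, as is the case where reads are not divided between similar genes.

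The 250 bases before the annotated start of 6 genes are shown, because their levels are set against each other in the results: *SUC1* with *SUC2*, *SWEET11* with *SWEET12*, and *SWEET2* with *SWEET17*. Each is written 5′ to 3′ on the strand of its gene, from the RefSeq sequence of TAIR10.1. Capitals mark matches, on either strand, to 5 short motifs. The G-box, read by bZIP and bHLH factors, has the letters CACGTG. The core of the W-box, read by WRKY factors, is TTGAC. An element of sugar-repressed genes is TTATCC, which can overlap the next one. The amylase box of cereals is written TATCCA here. A relative of the G-box is written TACGTG. The windows are chr1:27053780-27054029 (plus strand) for *SUC1*, chr1:8033157-8033406 (minus strand) for *SUC2*, chr3:18054833-18055082 (minus strand) for *SWEET11*, chr5:7973996-7974245 (minus strand) for *SWEET12*, chr3:4959705-4959954 (minus strand) for *SWEET2* and chr4:9033649-9033898 (minus strand) for *SWEET17*.
SUC1: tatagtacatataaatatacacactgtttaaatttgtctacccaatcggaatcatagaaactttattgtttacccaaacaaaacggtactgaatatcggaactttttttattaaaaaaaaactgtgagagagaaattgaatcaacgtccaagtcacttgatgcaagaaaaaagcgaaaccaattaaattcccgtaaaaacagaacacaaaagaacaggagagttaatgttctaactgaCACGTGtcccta
SUC2: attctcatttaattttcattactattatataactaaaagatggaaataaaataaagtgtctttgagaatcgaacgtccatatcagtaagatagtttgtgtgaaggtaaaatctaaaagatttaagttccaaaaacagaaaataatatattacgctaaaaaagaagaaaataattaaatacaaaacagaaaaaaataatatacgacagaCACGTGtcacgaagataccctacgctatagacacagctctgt
SWEET11: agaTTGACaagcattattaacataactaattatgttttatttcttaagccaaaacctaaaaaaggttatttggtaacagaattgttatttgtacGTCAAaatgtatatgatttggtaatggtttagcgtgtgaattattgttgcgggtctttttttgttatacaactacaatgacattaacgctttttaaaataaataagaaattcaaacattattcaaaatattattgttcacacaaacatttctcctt
SWEET12: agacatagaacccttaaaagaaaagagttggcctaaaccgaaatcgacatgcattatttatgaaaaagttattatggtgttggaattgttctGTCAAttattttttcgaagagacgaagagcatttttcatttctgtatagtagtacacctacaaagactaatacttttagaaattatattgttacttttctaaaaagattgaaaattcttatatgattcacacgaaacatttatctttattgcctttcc
SWEET2: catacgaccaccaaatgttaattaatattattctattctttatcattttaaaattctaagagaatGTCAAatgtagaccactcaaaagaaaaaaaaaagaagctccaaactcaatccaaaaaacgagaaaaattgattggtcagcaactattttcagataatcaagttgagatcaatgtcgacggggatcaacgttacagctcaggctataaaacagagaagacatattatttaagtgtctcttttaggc
SWEET17: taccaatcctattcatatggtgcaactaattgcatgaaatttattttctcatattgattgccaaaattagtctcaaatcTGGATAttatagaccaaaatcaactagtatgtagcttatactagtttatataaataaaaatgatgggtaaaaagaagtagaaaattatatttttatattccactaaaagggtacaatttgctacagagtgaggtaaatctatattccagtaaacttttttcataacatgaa

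*SUC1* and *SUC2* each held a G-box, which lay 12 to 7 bases before the start in *SUC1* and 42 to 37 bases before it in *SUC2*. Of the 10 genes 3 held a G-box (*SWEET4* was the other), where 6.49% of the 27443 protein-coding genes on the 5 chromosomes hold one in this window. The W-box core occurred in 3 of the 10 genes (*SWEET2*, *SWEET11* and *SWEET12*) and in 44.9% of all windows. It lay 156 to 152 bases before the start of *SWEET11* and 158 to 154 before that of *SWEET12*, on the strand opposite to the gene in both, and *SWEET11* had another copy at 247 to 243. TATCCA was found in 2 of the genes (*SWEET4* and *SWEET17*) and in 13.6% of all windows, TTATCC in 1 (*SWEET4*) and in 12.5%, and TACGTG in 1 (*SWEET4*) and in 6.77%. These matches are a description of the letters.

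The first comparison, *tmt2-S*/WT, asked how the transcripts of the carriers differ between the mutant and the WT when no sucrose is supplied. Of the 9 genes 3 were higher in *tmt2-S* (*SWEET2*, *SWEET11* and *SUC1*) and 2 were lower (*SWEET17* and *SUC2*), at an adjusted p at or under 0.05 (edgeR, quasi-likelihood F-test, p-values adjusted over all genes tested by the Benjamini-Hochberg method). Of all 18506 genes tested, 20.7% were higher and 22.6% lower by the same rule. The median log2FC (log2 of the fold change) was 0.00 over the 9 genes and -0.01 over all genes tested. Each of the 5 calls was kept under every alternative tried, including leaving out each library in turn.

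Among the tonoplast genes, *SWEET2* and *SWEET17* moved in opposite directions. *SWEET2*, a glucose carrier of the tonoplast described chiefly from roots, had 74.4, 104 and 98.6 FPKM in *tmt2-S*, against 24.6, 22.4 and 21.0 FPKM in the WT. All 3 *tmt2-S* libraries were far above the WT, and the gene was 3.95-fold higher (log2FC 1.98 with a standard error of 0.18, edgeR adjusted p = 6.8e-06). *SWEET17*, a fructose carrier, had 3.49, 2.31 and 1.08 FPKM in *tmt2-S*, against 11.1, 10.97 and 8.29 FPKM in the WT. It was lower in all 3 *tmt2-S* libraries (log2FC -2.19, standard error 0.42, edgeR adjusted p = 0.00114). For *SWEET16*, the closest relative of *SWEET17* among the members with 78.4% of 689 aligned coding bases identical, the values were 8.56, 9.46 and 10.5 FPKM in *tmt2-S* and 15.8, 17.9 and 8.63 FPKM in the WT. The groups overlapped because of replicate 3 of the WT, and the log2FC of -0.60 (standard error 0.32) had an edgeR adjusted p of 0.151. Without that library the log2FC was -0.88 with an edgeR adjusted p of 0.039. *SUT4*, the sucrose symporter of the tonoplast, was low in both groups, with 0.61, 0.97 and 1.0 FPKM in *tmt2-S* and 0.92, 1.41 and 0.96 FPKM in the WT (log2FC -0.39, standard error 0.29, edgeR adjusted p = 0.304).

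The ratio of *SWEET2* to *SWEET17* is drawn from the same values and restates the split of these genes within each library. It adds no separate support. It was 21.3, 45.1 and 91.3 in *tmt2-S*, against 2.22, 2.04 and 2.54 in the WT. With sucrose it was 3.33, 2.34 and 2.02 in *tmt2-L-Suc* and 1.41, 2.97 and 2.87 in WT-Suc, so that the 3 *tmt2-S* libraries stood above the other 9.

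Among the genes for sucrose movement into the phloem, *SWEET11* was higher and *SUC2* was lower in *tmt2-S*. *SWEET11* had 117, 167 and 182 FPKM in *tmt2-S*, against 69.9, 76.6 and 81.5 FPKM in the WT. The groups did not overlap, and the gene was 2.0-fold higher (log2FC 1.00, standard error 0.19, edgeR adjusted p = 0.00115). *SUC2* had 10.2, 18.6 and 11.6 FPKM in *tmt2-S*, against 32.1, 35.5 and 33.3 FPKM in the WT. It was lower in all 3 *tmt2-S* libraries (log2FC -1.36, standard error 0.23, edgeR adjusted p = 0.000543). *SWEET12* had 3.21, 9.73 and 11.3 FPKM in *tmt2-S* and 7.4, 6.46 and 9.81 FPKM in the WT. The *tmt2-S* replicates lay on both sides of the WT values, and the log2FC was 0.00 with a standard error of 0.37 (edgeR adjusted p = 0.996). Without replicate 1 of *tmt2-S* it was 0.39, with an edgeR adjusted p of 0.244.

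Of 13 markers of companion cells and sieve elements 11 were tested. In *tmt2-S* edgeR called 0 of these higher (0 also at an unadjusted p at or under 0.05) and 2 lower: *SEOR1*, which encodes a filament protein of sieve elements (log2FC -1.80), and *SMXL5*, a regulator of phloem formation (log2FC -0.70). Of all genes tested 22.6% were lower. Of the 11 log2FC values 7 were negative, with a median of -0.21. The summed FPKM of the 13 markers was 118 to 146 in *tmt2-S* and 122 to 134 in the WT, of which *PP2-A1* alone made up 79.9 ± 11.2 FPKM in *tmt2-S* and 67.5 ± 9.57 FPKM in the WT (SD, n = 3). None of the 13 was at 0 in all 3 libraries of a group. *AHA3*, the proton pump of companion cells, had 18.5 ± 2.08 FPKM in *tmt2-S* and 21.5 ± 2.05 FPKM in the WT (SD, n = 3). In whole shoots, fewer cells of a type and less RNA per cell cannot be told apart, and the part of tissue make-up in the values of *SUC2* and *SWEET11* was not tested.

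Of the plasma-membrane genes outside the phloem step, *SUC1* was higher in *tmt2-S*. *SUC1*, a sucrose symporter known from pollen and roots, had 49.9, 55.4 and 19.8 FPKM in *tmt2-S*, against 17.7, 18.3 and 14.3 FPKM in the WT. All 3 *tmt2-S* libraries were above the WT, but replicate 3 was above it only narrowly (log2FC 1.26, standard error 0.31, edgeR adjusted p = 0.00589). Its neighbour *SUC5* was low in the same *tmt2-S* library, with 2.01, 2.09 and 0.51 FPKM in *tmt2-S* and 0.91, 1.08 and 1.02 FPKM in the WT, and was not called (edgeR adjusted p = 0.334). *SWEET1*, a glucose carrier, had 8.9, 19.2 and 13.5 FPKM in *tmt2-S* and 10.9, 8.41 and 9.88 FPKM in the WT (log2FC 0.40, standard error 0.22, edgeR adjusted p = 0.171). Its groups overlapped through replicate 1 of *tmt2-S*, and without that library the log2FC was 0.62 with an edgeR adjusted p of 0.0214.

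**Figure D2:**
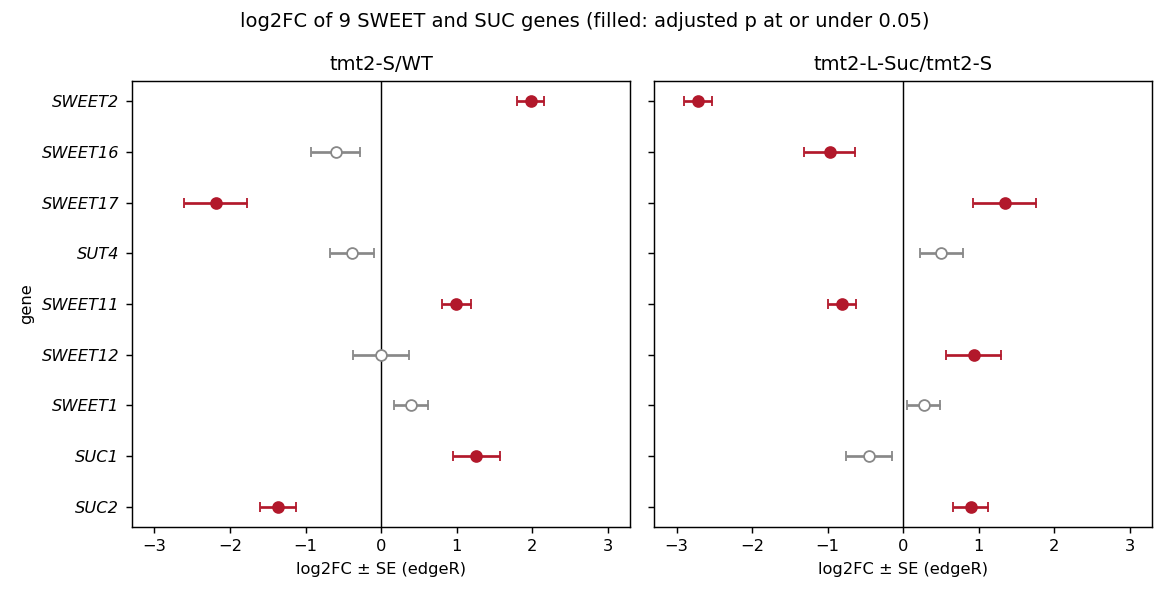
The log2FC of the 9 genes (horizontal axes, edgeR) with its standard error, in *tmt2-S*/WT on the left and in *tmt2-L-Suc*/*tmt2-S* on the right. Filled red points have an adjusted p at or under 0.05, which 5 genes reach on the left and 6 on the right, and both comparisons contain the *tmt2-S* libraries. Of all genes tested, 20.7% were called higher and 22.6% lower on the left, against 25.8% and 25.7% on the right.

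Without sucrose, the order of the 2 plasma-membrane SUC symporters differed between *tmt2-S* and the WT. The FPKM of *SUC1* was 4.92, 2.97 and 1.71 times that of *SUC2* in the 3 *tmt2-S* libraries, against 0.552, 0.514 and 0.429 times in the WT. *SUC1* thus exceeded *SUC2* in every *tmt2-S* library and lay below it in every WT library. In *tmt2-L-Suc* the ratio was 1.52, 0.818 and 1.45, and in WT-Suc it was 0.334, 0.517 and 0.685, so all 6 WT libraries with or without sucrose were below 1. The FPKM of *SWEET11* was 36.4, 17.2 and 16.2 times that of *SWEET12* in *tmt2-S*, against 9.45, 11.9 and 8.31 times in the WT. It was 6.2, 4.87 and 6.46 times in *tmt2-L-Suc* and 7.36, 12.4 and 15.4 times in WT-Suc, so the *tmt2-S* libraries lay above and the *tmt2-L-Suc* libraries below all others. With 3 libraries against 3, the smallest p of an exact two-sided permutation test is 0.1, which the FPKM differences between groups that do not overlap reach.

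**Figure D3:**
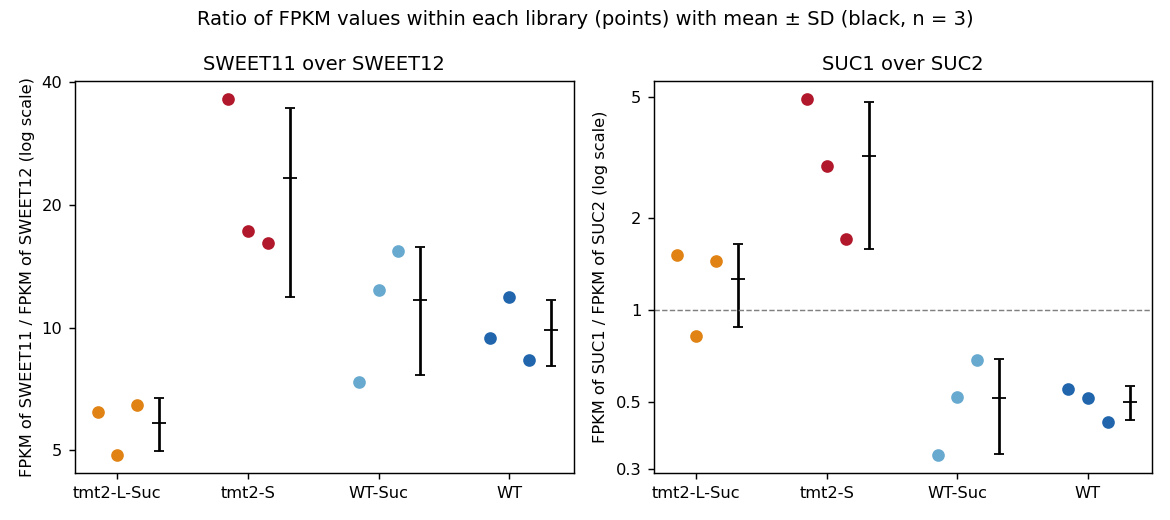
Ratio of the FPKM of *SWEET11* to *SWEET12* (left) and of *SUC1* to *SUC2* (right) within each library, on log axes, in *tmt2-L-Suc*, *tmt2-S*, WT-Suc and the WT, with the mean and SD of 3 replicates in black. The dashed line marks equal levels of *SUC1* and *SUC2*, and the 3 *tmt2-S* points (1.71 to 4.92) lie above it while the 6 points of WT-Suc and the WT lie below it.

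The summed FPKM of the 10 genes was 276, 387 and 350 in *tmt2-S*, against 191, 198 and 188 in the WT. It was 227, 212 and 194 in *tmt2-L-Suc* and 178, 176 and 156 in WT-Suc. *SWEET11* and *SWEET2* made up most of the *tmt2-S* sum, with mean shares of 45.9% and 27.3%. In the WT their mean shares were 39.6% and 11.8%. *SUC2* made up 3.93% of the sum in *tmt2-S* and 17.5% in the WT, a mean over 3 libraries in each.

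**Figure D4:**
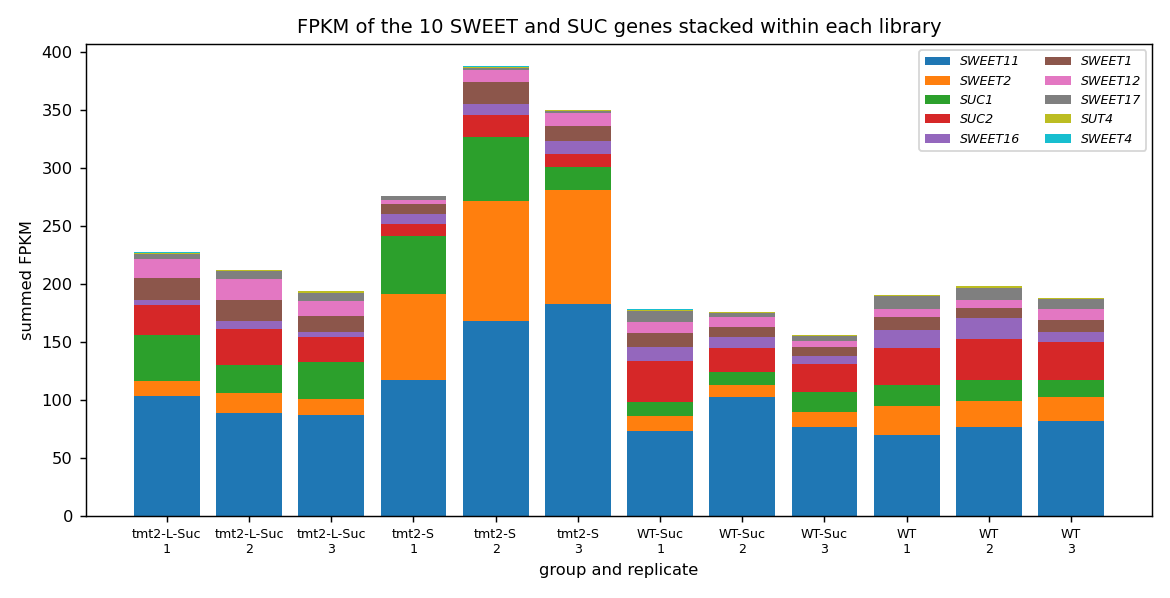
FPKM of the 10 genes stacked within each of the 12 libraries (vertical axis, from 0), with the libraries of *tmt2-L-Suc*, *tmt2-S*, WT-Suc and the WT from left to right. The tallest bars are those of *tmt2-S* (276 to 387 FPKM), in which the blue (*SWEET11*) and orange (*SWEET2*) parts are the largest, and the other 9 bars lie between 156 and 227 FPKM.

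The second comparison, *tmt2-L-Suc*/*tmt2-S*, asked what differs in the mutant when 1% sucrose is supplied. Of the 9 genes 3 were higher in *tmt2-L-Suc* (*SWEET17*, *SUC2* and *SWEET12*) and 3 were lower (*SWEET2*, *SWEET11* and *SWEET16*) by edgeR's test. Of all genes tested, 25.8% were higher and 25.7% lower. The comparison uses the same *tmt2-S* libraries as *tmt2-S*/WT, so its values are not independent of those above.

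*SWEET2* had 13.4, 16.9 and 13.8 FPKM in *tmt2-L-Suc*, against 74.4, 104 and 98.6 FPKM in *tmt2-S*. It was lower in all 3 libraries (log2FC -2.71, standard error 0.19, edgeR adjusted p = 8.18e-07), the largest log2FC of the 9 genes over the comparisons made. *SWEET11* had 103, 88.7 and 86.8 FPKM in *tmt2-L-Suc*, against 117, 167 and 182 FPKM in *tmt2-S*. Its groups did not overlap, although the highest *tmt2-L-Suc* and the lowest *tmt2-S* library were near each other (log2FC -0.81, standard error 0.19, edgeR adjusted p = 0.00325). *SUC2* had 26.0, 30.3 and 22.0 FPKM in *tmt2-L-Suc*, against 10.2, 18.6 and 11.6 FPKM in *tmt2-S*. The gene was 1.86-fold higher with sucrose (log2FC 0.90, standard error 0.23, edgeR adjusted p = 0.00612). These 3 calls were kept under every alternative.

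The other 3 calls depended on single libraries. *SWEET17* had 4.02, 7.2 and 6.85 FPKM in *tmt2-L-Suc*, against 3.49, 2.31 and 1.08 FPKM in *tmt2-S* (log2FC 1.34, standard error 0.42, edgeR adjusted p = 0.0169). The call was lost without *tmt2-L-Suc* replicate 2 (log2FC 1.14, edgeR adjusted p = 0.0595) or without *tmt2-S* replicate 3 (log2FC 1.02, edgeR adjusted p = 0.0605). *SWEET16* had 4.14, 7.56 and 3.68 FPKM in *tmt2-L-Suc*, against 8.56, 9.46 and 10.5 FPKM in *tmt2-S* (log2FC -0.97, standard error 0.34, edgeR adjusted p = 0.0278). The groups did not overlap, but the edgeR adjusted p was 0.101 without *tmt2-L-Suc* replicate 1, 0.114 without replicate 3, 0.0554 without *tmt2-S* replicate 2 and 0.0797 without replicate 3.

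*SWEET12* had 16.6, 18.2 and 13.4 FPKM in *tmt2-L-Suc*, against 3.21, 9.73 and 11.3 FPKM in *tmt2-S*. All 3 libraries with sucrose were higher, and the log2FC of 0.93 (standard error 0.36) had an edgeR adjusted p of 0.0468, just under the threshold. The call was lost with median-of-ratios scaling (edgeR adjusted p = 0.0505), in a fit of only these 2 groups (0.0772) and with the replicate number as a block (0.0593). It was also lost without *tmt2-L-Suc* replicate 1 (log2FC 0.95) or 2 (0.78) and without *tmt2-S* replicate 1 (0.55) or 2 (1.08), with edgeR adjusted p from 0.0579 to 0.136. *SWEET11* and *SWEET12* are described as partners in the same step. In this comparison *SWEET11* was lower and *SWEET12* had a positive log2FC, and the difference between the 2 genes was not tested.

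*SUC1*, *SWEET1* and *SUT4* were not called. *SUC1* had 39.5, 24.8 and 31.7 FPKM in *tmt2-L-Suc*, and replicate 3 of *tmt2-S* (19.8 FPKM) lay below these while the other *tmt2-S* libraries lay above (log2FC -0.46, standard error 0.31, edgeR adjusted p = 0.231). Without that library the log2FC was -0.78 with an edgeR adjusted p of 0.0136. *SWEET1* had 18.6, 17.6 and 13.8 FPKM in *tmt2-L-Suc* (log2FC 0.27, standard error 0.22, edgeR adjusted p = 0.323) and *SUT4* had 1.49, 0.87 and 1.53 FPKM (log2FC 0.50, standard error 0.29, edgeR adjusted p = 0.161). Of the 11 phloem markers tested, edgeR called 4 higher with sucrose: *SEOR1* (log2FC 2.20), *SEOR2* (2.06), *CALS7* and *SMXL5*. It called 4 lower: *PP2-A1*, a lectin of companion cells and sieve elements (-1.34), *AHA3*, *FTIP1* and *NAKR1*. By the same rule 25.8% of all genes tested were higher and 25.7% lower. The part of these markers in the values of *SUC2*, *SWEET11* and *SWEET12* was not tested.

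In the WT, edgeR called few transcripts with sucrose, and *SWEET2* was the only one of the 9 genes called in WT-Suc/WT. Of all genes tested, 0.222% were called higher and 1.25% lower in WT-Suc. These shares were not counted without WT-Suc replicate 2. The study, from its heatmap, describes the change of expression with sucrose in the WT as substantial. *SWEET2* had 13.2, 10.5 and 13.02 FPKM in WT-Suc, against 24.6, 22.4 and 21.0 FPKM in the WT. It was lower in all 3 libraries, and its log2FC was -0.97 ± 0.18 (SE, edgeR adjusted p = 0.0284). The call was lost without WT replicate 1 (log2FC -0.87, edgeR adjusted p = 0.122) or 2 (-0.97, 0.0775) and without WT-Suc replicate 2 (-0.89, 0.173) or 3 (-1.04, 0.0998), while its size changed little. The library with seed transcripts was WT-Suc replicate 2. The log2FC of the other 8 genes ran from -0.90 for *SWEET17* to 0.07 for *SWEET11*, with edgeR adjusted p from 0.228 to 0.898. *SWEET17* had 9.39, 3.55 and 4.54 FPKM in WT-Suc and 11.1, 10.97 and 8.29 FPKM in the WT, and the overlap came from replicate 1 of WT-Suc (standard error 0.39).

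The effect of sucrose differed between the genotypes for 4 of the 9 genes. This was tested as an interaction term between genotype and sucrose, namely the log2FC of *tmt2-L-Suc*/*tmt2-S* minus that of WT-Suc/WT. The interaction was positive for *SWEET17* (2.24, standard error 0.57, edgeR adjusted p = 0.00972) and *SUC2* (1.31, standard error 0.33, edgeR adjusted p = 0.00842). It was negative for *SWEET2* (-1.74, standard error 0.25, edgeR adjusted p = 0.000405) and *SWEET11* (-0.89, standard error 0.27, edgeR adjusted p = 0.0222). Of all genes tested, 18.1% had a positive and 16.6% a negative interaction by the same rule. Without WT-Suc replicate 2 the interaction was 2.00 for *SWEET17* (edgeR adjusted p = 0.025), 1.18 for *SUC2* (0.025) and -1.82 for *SWEET2* (0.00103).

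The 4 genes differed in what each genotype showed. *SWEET2* was lower with sucrose in both genotypes, by more in *tmt2* (log2FC -2.71) than in the WT (-0.97). *SUC2* had a log2FC of 0.90 in *tmt2* and -0.42 in the WT (standard error 0.23 in each). *SWEET17* had 1.34 in *tmt2* and -0.90 in the WT. *SWEET11* had -0.81 in *tmt2* and 0.07 in the WT, and its interaction lost the call without WT-Suc replicate 2 (-0.70, edgeR adjusted p = 0.0638), without *tmt2-S* replicate 3 (-0.73, 0.0537) or without *tmt2-L-Suc* replicate 3 (-0.81, 0.0563). For *SUC1* the log2FC with sucrose was -0.46 in *tmt2* and -0.44 in the WT, and the interaction of -0.02 had a standard error of 0.44. The age and the seedling class of *tmt2-S* are part of each of these interactions and cannot be told apart from them.

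**Figure D5:**
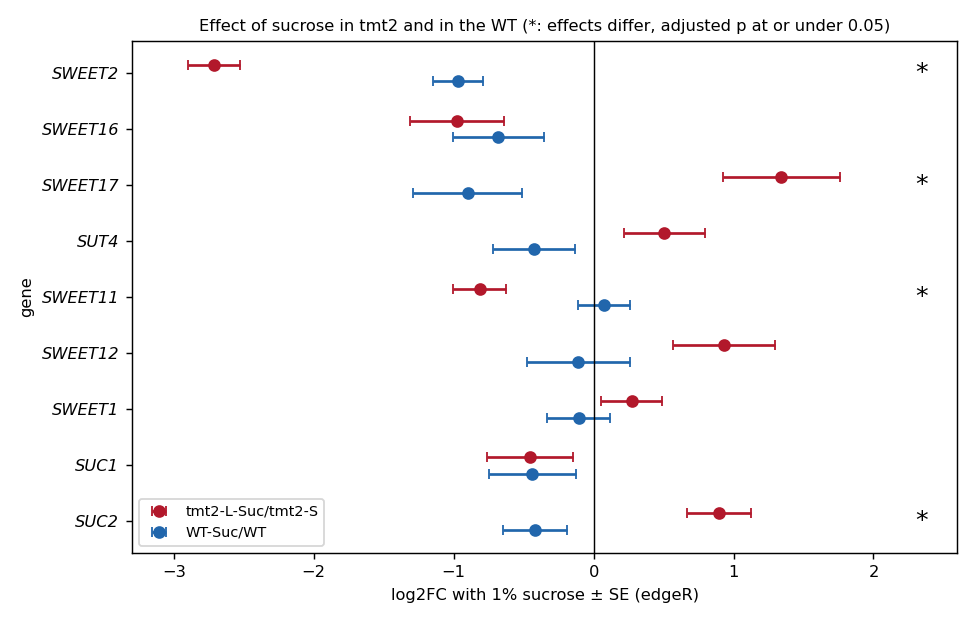
The log2FC with 1% sucrose (horizontal axis, edgeR) with its standard error in *tmt2* (*tmt2-L-Suc*/*tmt2-S*, red) and in the WT (WT-Suc/WT, blue) for the 9 genes. Asterisks mark *SWEET2*, *SWEET17*, *SWEET11* and *SUC2*, whose effects differed between the genotypes at an adjusted p at or under 0.05, and *SUC1* has nearly equal values (-0.46 and -0.44).

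With sucrose in both genotypes and at 1 age, *tmt2-L-Suc*/WT-Suc compared mutant and WT. Any choice of normally grown mutants for *tmt2-L-Suc* cannot be told apart from genotype here. Of the 9 genes 2 were higher in *tmt2-L-Suc* (*SUC1* and *SWEET1*) and 0 were lower in edgeR, where 4 genes had an unadjusted p at or under 0.05 and DESeq2 called 3 (*SWEET12* in addition). Of all genes tested, 10% were higher and 10.4% lower by edgeR's adjusted p. The shares of all genes at an unadjusted p or with DESeq2 were not counted. *SUC1* had 39.5, 24.8 and 31.7 FPKM in *tmt2-L-Suc*, against 11.8, 10.9 and 16.6 FPKM in WT-Suc. The groups did not overlap, and the gene was 2.37-fold higher (log2FC 1.24, standard error 0.31, edgeR adjusted p = 0.0164). The call was lost without *tmt2-L-Suc* replicate 1 (log2FC 1.10, edgeR adjusted p = 0.0547) or WT-Suc replicate 2 (1.14, 0.079). *SWEET1* had 18.6, 17.6 and 13.8 FPKM in *tmt2-L-Suc*, against 11.7, 8.97 and 8.14 FPKM in WT-Suc (log2FC 0.78, standard error 0.22, edgeR adjusted p = 0.0286). It lost its call without *tmt2-L-Suc* replicate 1 (0.73, edgeR adjusted p = 0.0778) or 2 (0.68, 0.0858) and without WT-Suc replicate 2 (0.75, 0.102) or 3 (0.69, 0.107).

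*SWEET12* had 16.6, 18.2 and 13.4 FPKM in *tmt2-L-Suc*, against 9.91, 8.28 and 4.98 FPKM in WT-Suc. All 3 *tmt2-L-Suc* libraries were higher, and the log2FC of 1.05 (standard error 0.36) had an edgeR adjusted p of 0.0597. It passed with DESeq2 (adjusted p = 0.029) and in a fit of only these 2 groups (edgeR adjusted p = 0.0199). Without WT-Suc replicate 2 the log2FC was 1.13 with an edgeR adjusted p of 0.129, and DESeq2 was not run without it. *SWEET16* had 4.14, 7.56 and 3.68 FPKM in *tmt2-L-Suc* and 12.3, 9.22 and 6.81 FPKM in WT-Suc, and its log2FC was -0.90 ± 0.34 (SE, edgeR adjusted p = 0.0765). Without *tmt2-L-Suc* replicate 2, the library in which the groups overlapped, it was -1.34 with an edgeR adjusted p of 0.0186. *SWEET2* (log2FC 0.24, standard error 0.18), *SWEET11* (0.11, 0.19), *SWEET17* (0.05, 0.39) and *SUC2* (-0.05, 0.23), which with *SUC1* were the genes called in *tmt2-S*/WT, had edgeR adjusted p from 0.355 to 0.941 here.

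Set against the WT without sucrose, *tmt2-L-Suc* had lower *SWEET16* and *SWEET2* and no gene called higher. Of all genes tested in *tmt2-L-Suc*/WT, 4.77% were higher and 6.97% lower. *SWEET16* had 4.14, 7.56 and 3.68 FPKM in *tmt2-L-Suc*, against 15.8, 17.9 and 8.63 FPKM in the WT (log2FC -1.58, standard error 0.34, edgeR adjusted p = 0.0112). It lost the call without *tmt2-L-Suc* replicate 1 (-1.42, edgeR adjusted p = 0.055) or 3 (-1.37, 0.0585). *SWEET2* had 13.4, 16.9 and 13.8 FPKM in *tmt2-L-Suc*, against 24.6, 22.4 and 21.0 FPKM in the WT (log2FC -0.73, standard error 0.18, edgeR adjusted p = 0.0202). The call was lost without *tmt2-L-Suc* replicate 1 (-0.63, edgeR adjusted p = 0.0956) or 3 (-0.67, 0.0942) and without WT replicate 1 (-0.63, 0.0761) or 2 (-0.73, 0.0574). The FPKM values of 8 of the 9 genes did not overlap between these groups, *SUT4* being the exception, and 6 genes had an unadjusted p at or under 0.05 in edgeR. *SUC1* (log2FC 0.81, edgeR adjusted p = 0.111), *SWEET1* (0.67, 0.0714) and *SWEET12* (0.94, 0.114) were not called here but passed in a fit of these 2 groups alone, which called 5 genes. The shares of all genes without overlap, at this unadjusted p or called in that fit were not counted. These counts therefore cannot be read as a trait of the carriers.

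Of the other SWEET genes listed, 8 of 10 were in the table and 1 (*SWEET15*, a sucrose carrier linked to senescence) passed the filter on low counts. *SWEET15* had 4.34, 1.25 and 0.04 FPKM in *tmt2-S* and 7.45, 4.3 and 2.1 FPKM in the WT, and it was not called in any comparison (edgeR adjusted p = 0.213 here). The remaining 7 (*SWEET3*, *SWEET5*, *SWEET6*, *SWEET7*, *SWEET10*, *SWEET13* and *SWEET14*) had at most 0.52 FPKM in any library. Of the other SUC genes, 3 of 6 were in the table and 2 were tested. *SUC3* had 12.7, 12.5 and 13.03 FPKM in *tmt2-S* and 5.96, 10.3 and 6.45 FPKM in the WT, without overlap, and its log2FC of 0.71 (standard error 0.28) had an edgeR adjusted p of 0.0564. *SUC5* was called in *tmt2-L-Suc*/WT-Suc (log2FC 1.93, standard error 0.46, edgeR adjusted p = 0.0127), with 2.12, 2.24 and 2.93 FPKM in *tmt2-L-Suc*, against 1.04, 0.5 and 0.34 FPKM in WT-Suc. The test of *SUC5* was not run without WT-Suc replicate 2, whose value lay between those of the other WT-Suc libraries. *SUC7* had counts in 1 library only. *SWEET8*, *SWEET9*, *SUC6*, *SUC8* and *SUC9* were not analysed here.

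The genes whose log2 CPM (counts scaled to library size) over the 12 libraries was most like that of *SWEET2* were AT1G16260 (Pearson r = 0.992), *GPX7* (0.991), AT3G10815 (0.988), *PPDK* (0.988) and *CDF2* (0.987). *PPDK* encodes pyruvate orthophosphate dikinase and *CDF2* a Dof transcription factor. For *SUC2* they were *PDF2* (r = 0.981), AT1G20640 (0.953), *CVL1* (0.952), *DMS11* (0.951) and AT5G08480 (0.947). *PDF2* encodes a homeodomain factor of the epidermis. The 12 points share 4 groups and 1 set of libraries, and these r values describe likeness only.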

How the data were processed

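Per the labels and the study's methods, poly(A) RNA of shoots was sequenced on an MGISeq instrument, and the authors used Bowtie2 for alignment to TAIR10.1 and RSEM for quantification. The deposited table holds expected counts and FPKM values for each gene and library, both made by the authors. The expected counts (20187961 to 21370053 per library) were rounded to whole numbers. The 10 genes were taken by symbol, and genes with low counts were removed with filterByExpr, which left 18506 of 22953 genes. A model with a mean for each group was fitted in edgeR 4.0.16 over the 12 libraries (TMM scaling, quasi-likelihood F-test), and p-values were adjusted over all genes tested by the Benjamini-Hochberg method. The standard error is the absolute log2FC divided by the square root of F. The threshold was an adjusted p of 0.05. Ratios and sums used FPKM. The fit was tested on simulated data.

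All 10 genes are named, as are *TMT2*, the other SWEET and SUC genes, and the 5 genes most like *SWEET2* and like *SUC2* by Pearson r. The genes, lists and tests were chosen with earlier results of these data known. Alternatives were median-of-ratios scaling, DESeq2 1.42.0, other filters, a fit of only the groups compared, a replicate block, limma 3.58.1 on log2(FPKM + 1) and log2(FPKM + 0.1), and leaving out each library in turn. R 4.3.3 and Biopython 1.88 (coding alignments) were used. Promoter windows came from the RefSeq annotation of TAIR10.1.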

Additional observations from a re-analysis of the deposited data

Results flagged for a closer look

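The effect of sucrose in *tmt2* minus that in the WT passed the edgeR interaction test for 4 of the 9 genes. Of all genes tested, 18.1% passed it with a positive and 16.6% with a negative difference. The difference on the log2 scale was 2.24 for *SWEET17*, 1.31 for *SUC2*, -0.89 for *SWEET11* and -1.74 for *SWEET2*. Within the WT only the effect on *SWEET2* (-0.97) was itself called, and those on *SUC2* (-0.42), *SWEET17* (-0.90) and *SWEET11* (0.07) were not. Each difference includes the older age and the seedling class of *tmt2-S*, which cannot be told apart from the genotype.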

How the results depend on the processing

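Of 801 log2FC values recomputed under the alternatives, 727 kept their direction and their side of the threshold, 32 lost the call, 10 gained it and 32 reversed. Of the 20 called results none reversed in the 300 alternatives run for them, and 11 kept the call in all of them. The shares of all genes called were counted for the main fit only, and not at an unadjusted p. The counts of called genes given here therefore cannot be read as a trait of the carriers. The count of called genes in *tmt2-L-Suc*/WT was 5 in a fit of only these 2 groups, against 2. Leaving out each of the 12 libraries in turn gave 5 to 6 called genes in *tmt2-S*/WT, 4 to 6 in *tmt2-L-Suc*/*tmt2-S*, 0 to 1 in WT-Suc/WT, 0 to 3 in *tmt2-L-Suc*/WT-Suc, 0 to 4 in *tmt2-L-Suc*/WT and 3 to 4 in the interaction. In edgeR the count was 0 for WT-Suc/WT without WT replicate 1 or 2 or WT-Suc replicate 2 or 3 (1 gene at an unadjusted p at or under 0.05 each). It was 0 for *tmt2-L-Suc*/WT-Suc without *tmt2-L-Suc* replicate 1 (3 genes unadjusted) or WT-Suc replicate 2 (4 genes), and for *tmt2-L-Suc*/WT without *tmt2-L-Suc* replicate 1 (4 genes) or 3 (5 genes). The reversals were of log2FC values near 0. That of *SWEET12* in *tmt2-S*/WT (0.00) was -0.029 with at least 10 counts in every library, -0.13 and -0.10 with limma on log2(FPKM + 0.1) and log2(FPKM + 1), -0.004 with no filter, -0.020 in the fit of 2 groups and -0.040 with the replicate block. The interaction of *SUC1* (-0.02) was 0.026 with at least 10 counts and 0.099 and 0.081 with limma on log2(FPKM + 0.1) and log2(FPKM + 1). Leaving out single libraries gave ranges that crossed 0, from -0.34 to 0.23 for *SUC1* in the interaction, -0.23 to 0.15 for *SUC2* in *tmt2-L-Suc*/WT-Suc, -0.0063 to 0.35 for *SUT4* in *tmt2-L-Suc*/WT, -0.22 to 0.017 for *SWEET1* in WT-Suc/WT, -0.017 to 0.30 for *SWEET11* in *tmt2-L-Suc*/WT-Suc, -0.11 to 0.20 for *SWEET11* in WT-Suc/WT, -0.35 to 0.39 for *SWEET12* in *tmt2-S*/WT, -0.28 to 0.11 for *SWEET12* in WT-Suc/WT and -0.19 to 0.52 for *SWEET17* in *tmt2-L-Suc*/WT-Suc. The correlation of same-numbered deviations ran from -0.325 to 0.331. Libraries of different numbers were not compared in this way, so whether the replicate numbers pair the libraries stays undecided. With the replicate block, 5 genes were called in *tmt2-S*/WT, 5 in *tmt2-L-Suc*/*tmt2-S*, where the call of *SWEET12* was lost (log2FC 0.97, edgeR adjusted p = 0.0593), and 4 in the interaction. *SWEET4*, with 0 to 8 counts per library, was too low to be tested in the main fit.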
